A study of Mus musculus with 13 samples.

Results

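Cholesterol synthesis in the lung was followed through 8 genes of the mevalonate and sterol pathway, Hmgcs1, Idi1, Fdps, Fdft1, Sqle, Lss, Dhcr7 and Insig1, which are known targets of the transcription factor SREBP2. They were chosen by symbol from a table of raw counts that lists 32544 gene symbols. All 8 had a row, and all 8 were among the 12496 genes with enough counts to be tested. None of the 8 takes up cholesterol itself, so the receptors and carriers of uptake were read from a separate list. The lungs came from wild-type (WT) C57BL/6J male mice, 7 weeks old when bought, that breathed 21% oxygen (normoxia, n = 7) or 80% oxygen (hyperoxia, n = 6) for 5 days. The lung tissue was perfused, frozen and homogenized, and its RNA was sequenced from the 3′ end of the mRNA (Quant-seq), with 1 library for each sample. The labels do not say that each sample is a separate mouse, so the p-values measure the spread between these libraries. In unsorted lung tissue, fewer cells of a type and less RNA per cell cannot be told apart.

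Cells build cholesterol from acetyl-CoA through mevalonate, short isoprenoids and squalene, and several of the later steps, among them the epoxidation of squalene, consume molecular oxygen. When sterols in the endoplasmic reticulum run low, SCAP escorts SREBP2 to the Golgi, where proteases free the part that enters the nucleus and turns on the genes of the pathway. When sterols are plentiful, the INSIG proteins hold SCAP back. In the alveolus, type 2 cells secrete surfactant, which contains cholesterol, and alveolar macrophages take it up again and export its cholesterol.

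The libraries held between 1607111 and 4540288 counts. The defining markers of lung were present, with a summed level of 10 alveolar type 2 markers between 13335 and 24518 in CPM, the count scaled to a common library size, in normoxia. One library, Hyperoxia 1, stood apart from the other 12, with correlations of log2 CPM to them between 0.721 and 0.833 against 0.854 to 0.967 among the others. It held 10 counts of Sqle, 8 of Idi1 and none of Fdps, and the values of several genes below are given with and without it. All CPM values are scaled by the trimmed mean of M values (TMM), and a gene was called at an adjusted p under 0.05 in edgeR's quasi-likelihood test, adjusted over all genes tested.

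Of the 8 genes, only Insig1 passed the test, being lower in hyperoxia by a factor of 1.86, and the other 7 were not called. Among all genes tested 22.6% were called, 10.8% as lower and 11.8% as higher in hyperoxia, so that 1 of 8 is a share near the background. Among the genes called, 52.3% were higher, a share that limma on the deposited log values put at 38.8%. With the additional requirement of a log2 fold change over 1.5, 3.91% of genes and none of the 8 remained. The log2 fold changes of the 8 genes had a median of −0.28, with 5 below 0 and 3 above, beside a median of −0.03 over all genes tested. Without Hyperoxia 1 that median of the 8 genes was −0.13, with 4 below 0 and 4 above, since Sqle turned to 0.13. In that fit Lss was called as higher and Insig1 as lower, where 28.5% of all genes tested were called.

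**Figure D1:**
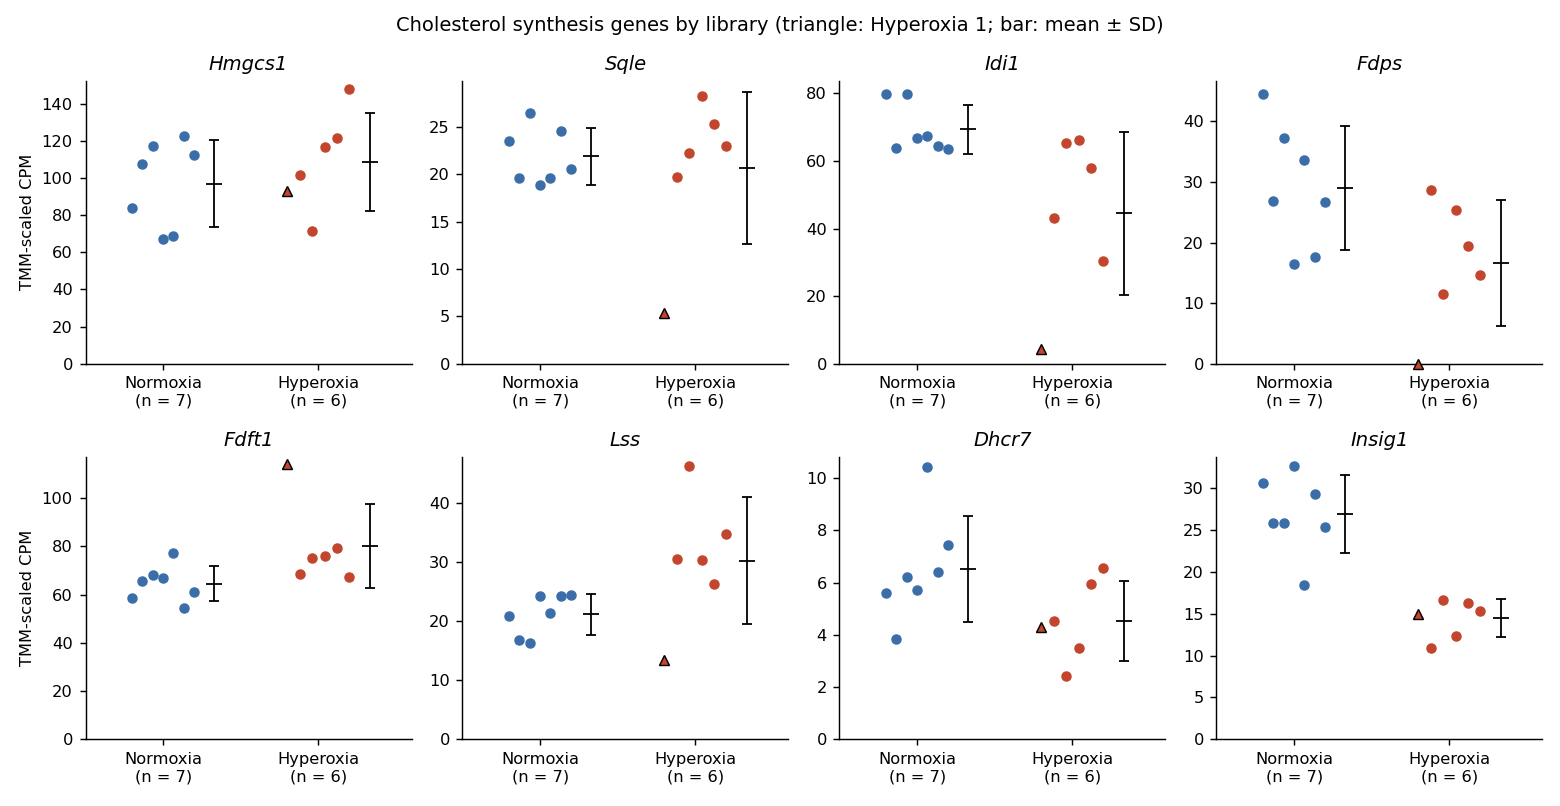
TMM-scaled CPM (linear axis from 0) of the 8 cholesterol synthesis genes in each of 7 normoxic and 6 hyperoxic libraries. Points are libraries, the triangle is Hyperoxia 1 and the bars are the mean ± SD. Only for Insig1 do the groups not overlap, and Hyperoxia 1 is the lowest hyperoxic library for Sqle, Idi1, Fdps and Lss and the highest for Fdft1.

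The early part of the pathway was represented by Hmgcs1, Idi1 and Fdps. Hmgcs1 encodes the HMG-CoA synthase of the mevalonate arm, and it lies on the plus strand at chr13:119690379-119708260 (GRCm38). Its level ran from 66.9 CPM through a median of 107 to 122 CPM in normoxia. In hyperoxia the lowest, the median and the highest library had 71.6, 109 and 148 CPM. The groups overlapped over most of their range, and the log2 fold change of 0.17 (SE 0.19, 95% interval −0.24 to 0.57) had an adjusted p of 0.579 (edgeR).

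Idi1 encodes the isomerase that supplies dimethylallyl diphosphate, and it lies on the plus strand at chr13:8885501-8892451. Normoxic libraries held 63.6 to 79.9 CPM, with a median of 66.9 CPM. Hyperoxic libraries held 4.29 to 66.2 CPM, with a median of 50.5 CPM. No hyperoxic library exceeded the normoxic median, and 4 of the 6 lay below every normoxic library. The log2 fold change was −0.63 (SE 0.36, 95% interval −1.39 to 0.13, adjusted p = 0.227, edgeR), and it was −0.38 (adjusted p = 0.121) without Hyperoxia 1. A two-sided exact permutation test of the mean log2 CPM (difference −1.01) gave p = 0.00874 for Idi1. After adjustment over the 12 exact tests made, this p was 0.0350. It differs from the edgeR value in the test, the measure and the number of tests adjusted over. Without Hyperoxia 1 the exact permutation p of Idi1 was 0.0189, or 0.0568 after adjustment.

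Fdps encodes the synthase of farnesyl diphosphate, the last intermediate shared by sterols and the lipids that are attached to proteins. It lies on the minus strand at chr3:89093588-89101959. The normoxic libraries spread from 16.5 through 26.9 to 44.4 CPM, and the hyperoxic ones from 0 through 17.0 to 28.7 CPM, where the count of 0 in Hyperoxia 1 allows up to 1.61 CPM. Of the hyperoxic libraries, 3 of 6 lay under the lowest normoxic one. The log2 fold change of −0.78 (SE 0.47, 95% interval −1.77 to 0.21) had an adjusted p of 0.255, and −0.52 with an adjusted p of 0.167 without Hyperoxia 1 (edgeR). The exact permutation p of Fdps was 0.0408, or 0.0979 over the 12 tests, and 0.115 without Hyperoxia 1.

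The second part of the pathway, from squalene to cholesterol, was represented by Fdft1, Sqle, Lss and Dhcr7. Fdft1 encodes squalene synthase, the first enzyme committed to sterols, and lies on the minus strand at chr14:63145150-63179578. Its normoxic range was 54.4 to 77.2 CPM (median 65.7), and its hyperoxic range was 67.3 to 114 CPM (median 75.5). Every hyperoxic library was above the normoxic median, yet only 2 of the 6 were above all normoxic libraries, one of them Hyperoxia 1 with the highest value. Neither the log2 fold change of 0.31 (SE 0.15, adjusted p = 0.141, edgeR) passed the test nor the 0.20 obtained without that library (adjusted p = 0.211). The exact permutation p was 0.0169, or 0.0507 over the 12 tests, and 0.0480 without Hyperoxia 1, or 0.115 after adjustment.

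Sqle encodes squalene epoxidase, an oxygen-consuming and rate-limiting enzyme, and lies on the plus strand at chr15:59315077-59331192. Its level was 18.8 to 26.5 CPM in normoxia (median 20.5) and 5.36 to 28.3 CPM in hyperoxia (median 22.6). Apart from Hyperoxia 1, which had the lowest value of all, the hyperoxic libraries started at 19.6 CPM and overlapped the normoxic ones. The log2 fold change was −0.07 (95% interval −0.62 to 0.49, adjusted p = 0.882, edgeR) and turned to 0.13 (adjusted p = 0.571) without Hyperoxia 1.

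Lss encodes lanosterol synthase, which closes the sterol rings, and lies on the plus strand at chr10:76531588-76557138. In normoxia the lowest, median and highest levels were 16.4, 21.4 and 24.4 CPM. In hyperoxia they were 13.4, 30.5 and 46.2 CPM. In 5 of 6 hyperoxic libraries the level was above every normoxic library, and in the remaining one, Hyperoxia 1, it was below all of them. Lss had a log2 fold change of 0.52 (SE 0.23, 95% interval 0.04 to 1.00, adjusted p = 0.112, edgeR). Without Hyperoxia 1 it was 0.68 (SE 0.18, adjusted p = 0.00812), so that this single library decided whether Lss was called. The exact permutation p of Lss was 0.0997, or 0.171 over the 12 tests, and 0.00126 without Hyperoxia 1, or 0.00505 after adjustment.

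Dhcr7 encodes the reductase of 7-dehydrocholesterol at the end of the pathway, and lies on the plus strand at chr7:143823145-143848410. It was counted only 7 to 30 times per library. Levels of 3.84 to 10.4 CPM in normoxia (median 6.21) and 2.43 to 6.56 CPM in hyperoxia (median 4.41) overlapped. The log2 fold change of −0.48 had a 95% interval from −1.10 to 0.13 (adjusted p = 0.258, edgeR), and the difference did not pass the test.

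Insig1, whose protein holds the complex of SCAP and SREBP2 in the endoplasmic reticulum and whose gene is itself a target of SREBP2, lies on the plus strand at chr5:28071363-28078662. Its level in normoxia was 18.4 CPM in the lowest library, 25.9 CPM in the median and 32.6 CPM in the highest. In hyperoxia the corresponding values were 11.0, 15.2 and 16.7 CPM. All 6 hyperoxic libraries were below all 7 normoxic libraries, a separation found in 10.8% of the genes tested. The normoxic mean was 26.8 ± 4.65 CPM (SD, n = 7), whereas the hyperoxic mean was 14.4 ± 2.27 CPM (SD, n = 6). On the log2 scale the fold change was −0.90 (SE 0.18, 95% interval −1.27 to −0.52, adjusted p = 0.00180, edgeR), and −0.89 (adjusted p = 0.00145) without Hyperoxia 1. The exact permutation test of Insig1 gave p = 0.00117, or 0.00699 over the 12 tests.

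The library names fall into letters B to M (5 normoxic and 3 hyperoxic libraries) and O to S (2 and 3 libraries), and the labels do not say what the letters stand for. Insig1 differed by −0.87 in mean log2 CPM in each of these sets. The interaction of Insig1 with the letter set was 0.02 on the log2 scale (adjusted p = 0.986, edgeR). Fitted alone, the B to M libraries gave Insig1 a log2 fold change of −0.86 that missed the threshold (adjusted p = 0.0927), and the O to S libraries one of −0.91 that passed it (adjusted p = 0.0257). The differences of Idi1 were −1.57 in the B to M set, which holds Hyperoxia 1, and −0.38 in the O to S set. Those of Fdps were −2.32 and −0.16, and those of Sqle −0.65 and 0.18. The B to M value of Fdps includes the count of 0 in Hyperoxia 1, for which the prior count sets the log2 CPM. Without Hyperoxia 1, which leaves 2 hyperoxic libraries in that set, the B to M differences were −0.42 for Idi1, −0.71 for Fdps and −0.03 for Sqle, and −0.92 for Insig1. None of the 12496 genes had an interaction with the letter set at an adjusted p under 0.05, and 1158 had one at an unadjusted p under 0.05.

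**Figure D2:**
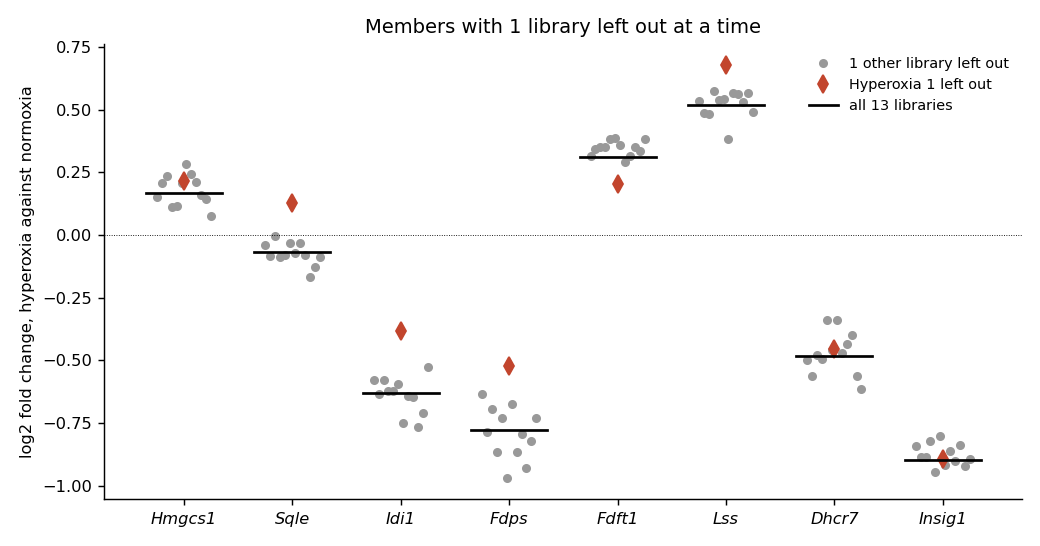
Log2 fold change of hyperoxia against normoxia (edgeR) for the 8 cholesterol synthesis genes with all 13 libraries (black line), without Hyperoxia 1 (red diamond) and without each other library (grey points). Leaving out Hyperoxia 1 moved Sqle, Idi1, Fdps and Lss upward and Fdft1 downward, and left Insig1 at −0.89.

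The promoters of Insig1, Hmgcs1 and Lss are shown because Insig1 was the gene called, Lss the one whose call depended on 1 library, and Hmgcs1 the one with a match to the sterol element. The letters are from RefSeq (GRCm38.p6, plus strand) and cover up to 250 bases before the start site of RefSeq, ending before the first annotated base of the gene. Capitals mark matches on either strand to TCACNCCAC (a form of the sterol regulatory element), CACGTG (the E-box that SREBPs can also bind), CCAAT and GGGCGG (the boxes of NF-Y and Sp1).
Insig1, chr5:28071162-28071362: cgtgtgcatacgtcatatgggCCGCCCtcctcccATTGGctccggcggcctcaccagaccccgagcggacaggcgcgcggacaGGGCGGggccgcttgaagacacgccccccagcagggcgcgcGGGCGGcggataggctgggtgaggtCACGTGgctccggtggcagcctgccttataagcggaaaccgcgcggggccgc
Hmgcs1, chr13:119690101-119690350: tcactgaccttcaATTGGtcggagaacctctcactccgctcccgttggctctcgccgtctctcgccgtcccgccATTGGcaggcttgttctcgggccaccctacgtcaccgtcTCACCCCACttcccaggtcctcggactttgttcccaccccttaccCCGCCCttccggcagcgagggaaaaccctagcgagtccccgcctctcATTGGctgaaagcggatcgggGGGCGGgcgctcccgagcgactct
Lss, chr10:76531355-76531587: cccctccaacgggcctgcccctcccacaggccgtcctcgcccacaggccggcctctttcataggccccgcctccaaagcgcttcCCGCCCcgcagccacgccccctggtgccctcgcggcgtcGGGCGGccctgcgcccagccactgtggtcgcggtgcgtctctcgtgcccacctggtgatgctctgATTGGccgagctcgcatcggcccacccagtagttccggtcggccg
Over 32851 promoters of the same length, 1.05% held the sterol element in this form, 6.02% CACGTG, 33.8% CCAAT and 32.7% GGGCGG. Of the 8 genes, 5 had an entry, with 7 promoters between them, and Sqle, Fdps and Fdft1 had none. Within those 7 promoters the sterol element was matched only in Hmgcs1, at bases −137 to −129 from the start site. Insig1 held CACGTG at −101 to −96, and 1 of the 3 promoters of Dhcr7 also held this motif. A match describes the letters and is no evidence that a factor binds there.

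The control of SREBP2 was read from 7 further genes, of which 1 was lower and none higher in hyperoxia, with a median log2 fold change of 0.12. Srebf2 itself, which encodes SREBP2, had 36.0 to 59.4 CPM in normoxia (median 46.3) and 22.7 to 101 CPM in hyperoxia (median 43.3). Its log2 fold change of 0.12 (adjusted p = 0.787, edgeR) had no stable sign across the alternatives. Scap, which encodes the escort, was at −0.22 (adjusted p = 0.722), and near 0 without Hyperoxia 1 (−0.0027, adjusted p = 0.996). Mbtps1, which encodes the first of the Golgi proteases, was the gene that fell, with a log2 fold change of −0.85 (SE 0.29, adjusted p = 0.0489, edgeR). That call was lost in 8 of the 13 fits that left out 1 library, in which the adjusted p of Mbtps1 ran from 0.0324 to 0.0990, and its value was −0.66 without Hyperoxia 1.

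Insig2, the relative of Insig1 that is not known as an SREBP2 target, had a fold change of the opposite sign that did not pass the edgeR test. It lies on the minus strand at chr1:121304353-121332589. Its level was 34.9 to 52.3 CPM in normoxia (median 42.1) and 39.7 to 68.4 CPM in hyperoxia (median 55.3). The groups overlapped, with 4 of 6 hyperoxic libraries above all normoxic ones, and the log2 fold change of 0.37 (SE 0.15) had an adjusted p of 0.0920 (edgeR). Without Hyperoxia 1, the hyperoxic library with the lowest value, Insig2 was at 0.46 and was called as higher (adjusted p = 0.0196). It was also called as higher by DESeq2 on all 13 libraries (0.40, adjusted p = 0.0469). This was the 1 call of Insig2 in 9 other settings that kept all libraries (adjusted p up to 0.270). The fit without Hyperoxia 1 was the 1 call among the 13 that left out 1 library (adjusted p up to 0.144).

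Within each library, the ratio of Insig1 to Insig2 CPM lay between 0.526 and 0.776 in normoxia (median 0.679) and between 0.204 and 0.378 in hyperoxia (median 0.254). The groups did not overlap. The mean log2 ratio was −0.64 in normoxia and −1.86 in hyperoxia, a difference of −1.22 (two-sided exact permutation p = 0.000583, the smallest that the splits of 7 and 6 libraries can give). The ratio was formed after the values of both genes had been seen, and Insig1 alone already separated the groups.

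**Figure D3:**
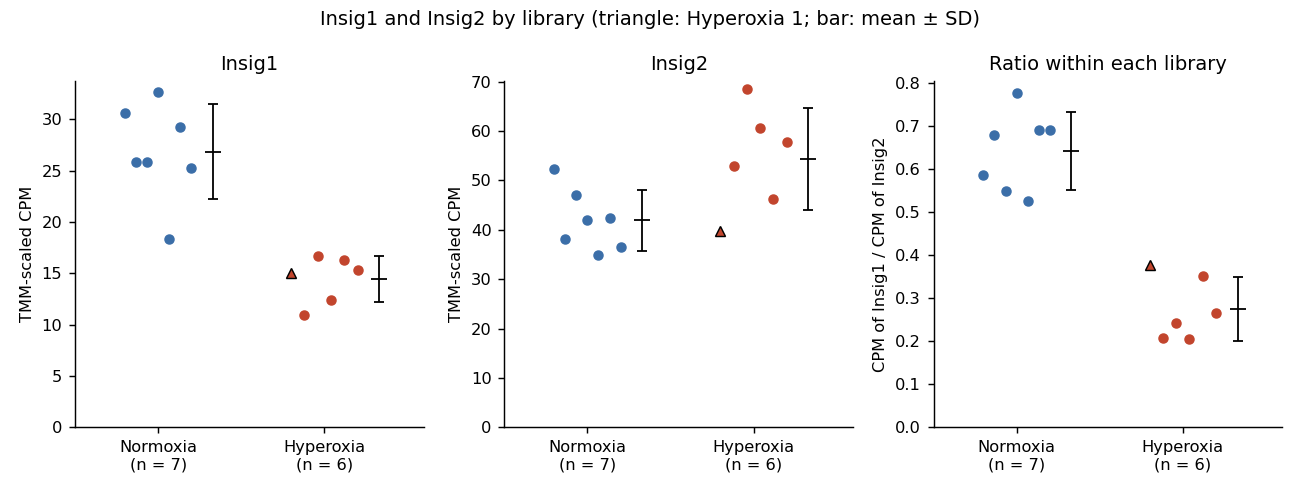
TMM-scaled CPM of Insig1 (left) and Insig2 (middle), and the ratio of the 2 within each library (right), all on linear axes from 0, for 7 normoxic and 6 hyperoxic libraries. Points are libraries, the triangle is Hyperoxia 1 and the bars are the mean ± SD. The ratio is at least 0.526 in normoxia and at most 0.378 in hyperoxia.

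The other enzymes of the pathway were followed with 2 lists. Of the 4 further enzymes of the mevalonate arm that were read, none was called, and Pmvk, named after its values were seen, was called as higher without Hyperoxia 1 (log2 fold change 1.23, adjusted p = 0.0345, edgeR). Of the 9 further enzymes of the sterol arm, only Hsd17b7, a reductase of the sterol ring's 3-keto group, was called. It was higher in hyperoxia by 0.89 on the log2 scale (SE 0.31, adjusted p = 0.0471), and by 1.11 (adjusted p = 2.48e-04) without Hyperoxia 1, which had the lowest value of all. Hsd17b7 lost its call with the letter set as a term (adjusted p = 0.0910), limma-voom (0.110), limma on the deposited values (0.250) and library size alone (0.0732). In 11 of the 13 fits that left out 1 library Hsd17b7 was not called, with an adjusted p of up to 0.0915. The medians of these lists were 0.09 and −0.04.

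**Figure D4:**
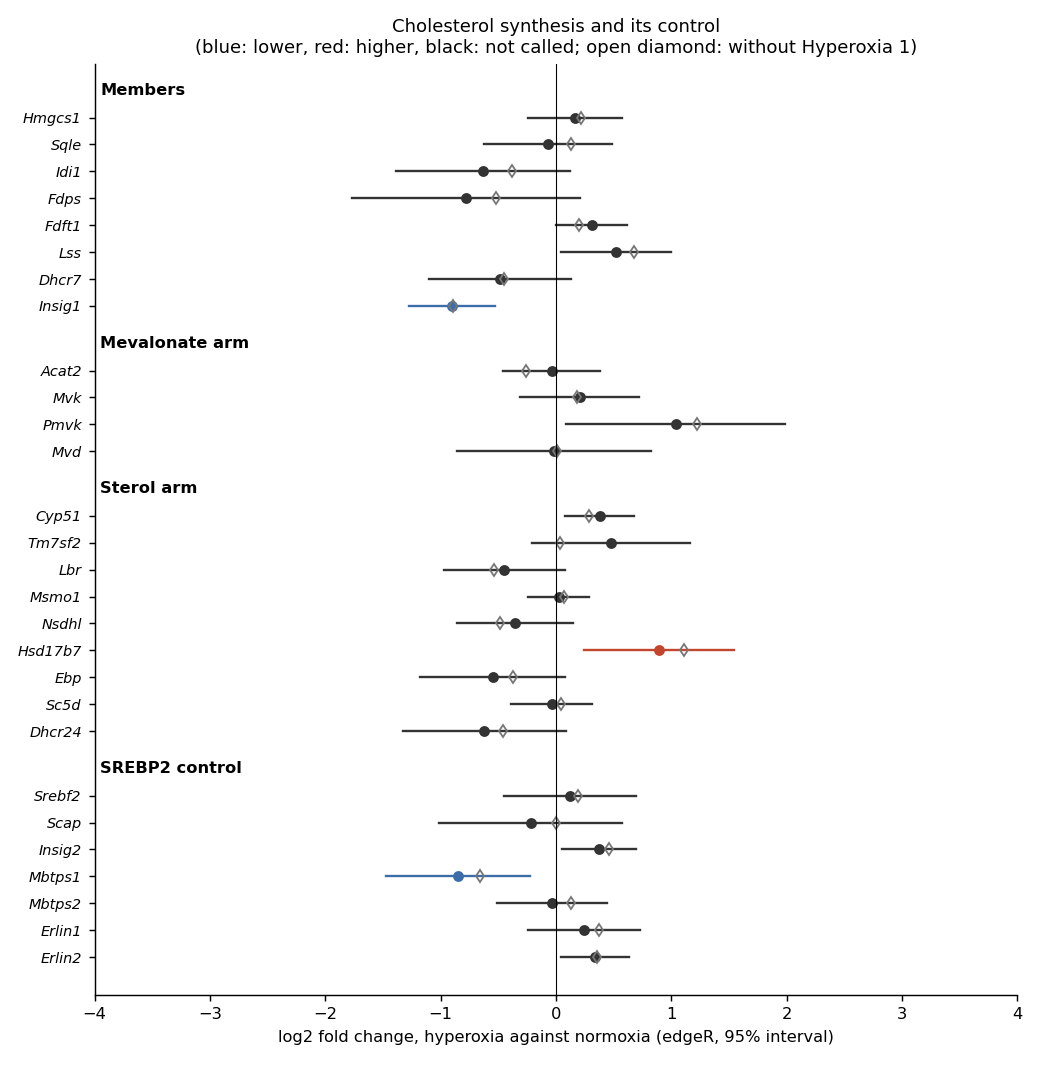
Log2 fold change of hyperoxia against normoxia with its 95% interval (edgeR) for the 8 genes and the further genes of synthesis and SREBP2 control. Blue is lower, red higher and black not called at an adjusted p under 0.05, and open diamonds are values without Hyperoxia 1. Insig1 and Mbtps1 are lower, Hsd17b7 is higher, and the remaining intervals are those of genes not called.

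Genes of cholesterol uptake and transport gave 1 higher and 2 lower of 10 tested (11 listed), with a median of −0.14. Mylip, a ubiquitin ligase that degrades lipoprotein receptors, fell by 1.39 on the log2 scale (adjusted p = 0.00301, edgeR). Scarb1, the receptor of high-density lipoprotein, fell by 1.20 (adjusted p = 4.36e-04), and for both all 6 hyperoxic libraries lay under the lowest normoxic library. Lrp1, a receptor of remnant lipoproteins, rose by 0.49 (adjusted p = 0.0356), and lost its call in 5 of the 13 fits that left out 1 library (adjusted p up to 0.0677). Of 9 other settings that kept all libraries, 5 also ended the call of Lrp1 (adjusted p up to 0.181). Among them were the letter set as a term (adjusted p = 0.0518), limma on the deposited values and library size alone.

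Among genes of efflux, esterification and oxysterols, 2 were higher and 3 lower of 10 tested (12 listed), with a median of −0.26. The exporters Abca1 and Abcg1, which move cholesterol onto lipoproteins, fell by 0.98 (adjusted p = 7.79e-04, edgeR) and 1.12 (adjusted p = 0.00278) on the log2 scale, with no overlap between the groups. Cyp27a1, the sterol 27-hydroxylase, was lower by a log2 fold change of −1.59 (adjusted p = 0.0351), a call lost in 6 of the 13 fits that left out 1 library (adjusted p up to 0.0797). Ch25h, the cholesterol 25-hydroxylase, rose from a median of 2.08 to 9.47 CPM (log2 fold change 1.98, SE 0.58, adjusted p = 0.0205) although 3 of 6 hyperoxic libraries overlapped the normoxic ones or lay below them, and its call was lost without Hyperoxia 4 (log2 fold change 1.54, adjusted p = 0.0648). Of 8 other settings that kept all libraries, 4 also lost the call of Ch25h, with log2 fold changes down to 1.35 and adjusted p up to 0.151. Cyp7b1, the oxysterol 7α-hydroxylase, rose from a median of 3.90 to 11.9 CPM (log2 fold change 1.44, adjusted p = 0.00226), in 6 of 6 hyperoxic libraries above all normoxic ones.

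Of 9 genes that draw isoprenoids off to other products, Nus1, a subunit of the dolichol-making prenyltransferase, was the one called, with a log2 fold change of 0.94 (adjusted p = 0.0167, edgeR). Its call was lost in 3 of 9 other settings that kept all libraries. Hyperoxia 1, at 55.8 CPM, lay below every normoxic library for Nus1, and without it the value was 1.15 (adjusted p = 7.76e-05). Over the 49 cholesterol pathway genes tested besides the 8 (52 listed), 5 were higher and 6 lower, which is 22.4% called with a median of −0.01, beside 22.6% of all genes tested. The split of these calls moved with the setting, to 1 higher and 7 lower with limma on the deposited values, 2 and 7 with limma-voom, 3 and 7 with library size alone and 2 and 6 in the fit that holds the letter set as a term. Without Hyperoxia 1 there were 8 higher and 9 lower, 34.7% called beside 28.5% of all genes. The calls gained were Pmvk, Insig2 and Pdss1 as higher and Stard4, Soat1 and Apoe as lower.

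The genes of fatty acid synthesis, which SREBP1 controls, were read beside them. Of 10 tested (11 listed), 1 was higher and 5 lower, with a median of −0.70. Fasn, the fatty acid synthase, went from a median of 345 to 116 CPM (log2 fold change −1.21, adjusted p = 0.00373, edgeR, and −1.60 without Hyperoxia 1), and Scd1, the stearoyl-CoA desaturase, from 492 to 211 CPM (−1.29, adjusted p = 1.04e-04). Acly, Acss2 and Fads1 fell by 0.97, 0.95 and 0.93, and Me1, the NADPH-producing malic enzyme, rose by 0.81 (adjusted p = 2.27e-04). Fads1 lost its call in 7 of the 13 fits that left out 1 library (adjusted p up to 0.0876). Srebf1 had a log2 fold change of −0.33 (adjusted p = 0.419), and −0.12 without Hyperoxia 1 (adjusted p = 0.625). Whether the calls of this list and of the 8 genes differed in frequency was not tested.

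**Figure D5:**
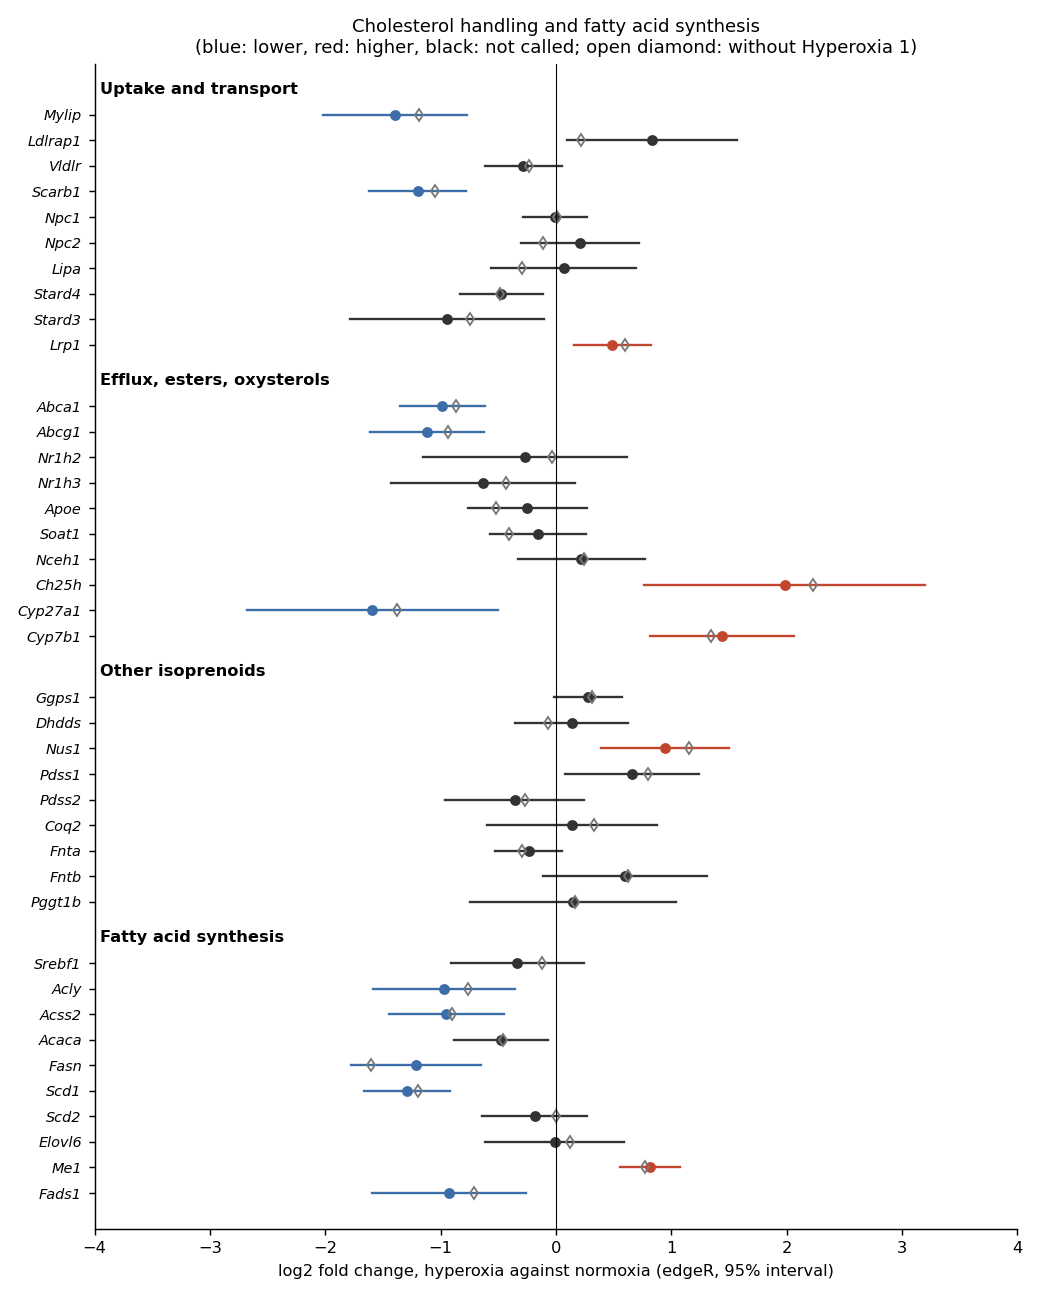
Log2 fold change of hyperoxia against normoxia with its 95% interval (edgeR) for genes of cholesterol uptake, efflux, other isoprenoid products and fatty acid synthesis. Blue is lower, red higher and black not called at an adjusted p under 0.05, and open diamonds are values without Hyperoxia 1. Scarb1, Mylip, Abca1, Abcg1, Fasn and Scd1 are among those lower, and Cyp7b1, Ch25h and Me1 among those higher.

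Markers of several cell types moved with the same comparison. Of 10 alveolar type 2 markers 7 were lower and none higher (median −1.48), and their summed level was 13335 to 24518 CPM in normoxia and 3568 to 7758 CPM in hyperoxia. Of 8 endothelial markers 6 were lower (median −0.99), with sums of 3399 to 5635 CPM and 1300 to 4800 CPM, and 5 of 5 tested B and T cell markers were lower, with sums of 122 to 171 CPM and 35.1 to 87.4 CPM, the highest hyperoxic sum being 52.8 CPM without Hyperoxia 1. Club and ciliated markers gave 4 lower of 6, with sums of 14584 to 53325 CPM and 281 to 10129 CPM. In normoxia most of this sum was the club cell gene Scgb1a1 (mean 33862 CPM). Of the ciliated markers, Foxj1 was at −0.0077 on the log2 scale (adjusted p = 0.994, edgeR), whereas Tppp3 and Ccdc153 were called at −1.82 and −1.26. Of 7 alveolar macrophage markers 1 was higher and 3 lower, with sums of 355 to 440 CPM and 186 to 714 CPM, and Fabp1 was at or under the floor of 3 counts in hyperoxia. The part of these cell types in the level of Insig1 was not tested.

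The remaining marker lists were read beside the 22.6% of all genes called. Alveolar type 1 markers gave 1 lower of 6, with sums of 1486 to 1825 CPM and 936 to 1803 CPM. Fibroblast and smooth muscle markers gave 1 higher each, of 4 and 5 tested. Monocyte and neutrophil markers gave 2 lower of 5, adipocyte markers 1 lower of 5, heart muscle markers 2 lower of 5 and cycling cell markers none of 5. Hyperoxia 1 set the lowest hyperoxic sum for several lists, and without it the hyperoxic sums started at 1493 CPM for type 1, 3315 CPM for club and ciliated and 496 CPM for macrophage markers.

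The genes whose levels most resembled the mean of the 8 were found by the correlation of log2 CPM over the 13 libraries, after centring within each condition. They were Sdhaf4, Nck2, Imp3, Pkig and Dctn6, with r from 0.976 to 0.981. These values were set largely by Hyperoxia 1, whose centred mean was −1.15, against −0.13 to 0.34 in the other 12 libraries. Without it, over 12 libraries, the closest genes included Sh3pxd2a, Plk2, Lta4h and Rab5b, with r from 0.856 to 0.928, and none of the first 5 was among the closest 5. The 8 genes differed in how closely they followed one another within conditions. Against their own mean, of which each is a part, Sqle had r = 0.76, Fdps 0.60, Dhcr7 0.46, Hmgcs1 0.43, Idi1 0.28, Fdft1 0.05, Insig1 −0.12 and Lss −0.44 over these 12 libraries, which share their depth and cell composition with all of these genes.

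The strand used in counting is not given in the sources used here, so genes that overlap others are uncertain. Hmgcs1, Idi1, Fdft1 and Lss each overlap 1 gene on the opposite strand, which for Fdft1 is the protein-coding Ctsb, and Fdps overlaps Gm43738 and a small nuclear RNA gene on its own strand. Insig2 overlaps Gm37174 on the opposite strand, whereas Insig1, Sqle and Dhcr7 overlap none.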

How the data were processed

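Quant-seq libraries of 13 mouse lung samples were grouped by the labels into 7 normoxic and 6 hyperoxic samples. The authors quantified the reads with kallisto and deposited whole-number counts per gene symbol. The submitters' processing notes also name limma 3.54.2 and mm10. They also deposited log10 values, which equalled log10 of CPM plus 1 recomputed from the counts to within 4.4e-16. All columns were mapped to a sample, and 0 were left out. The counting annotation and strand are not given in the sources used here.

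Counts were tested in R 4.3.3 with edgeR 4.0.16 (quasi-likelihood test, TMM, filterByExpr, Benjamini-Hochberg over 12496 genes), tested on simulated data. Standard errors and 95% intervals came from the fitted fold change and its F statistic, and log2 CPM used a prior count of 2. Exact permutation tests were two-sided over all splits of 7 and 6 libraries. Alternatives were DESeq2 1.42.0, limma 3.58.1 (voom, or the deposited log10 values rescaled to log2), other scalings and filters, the letter set or replicate number as a term, each letter set alone and each library left out. The Insig1 to Insig2 ratio and the like genes, exact tests, letter set differences and marker sums without Hyperoxia 1 were added with the results in view.

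The 8 genes and all lists were chosen with earlier results of these data known. Genes named are the 8, list genes at an adjusted p under 0.05, Srebf2, Insig2, Scap and Srebf1, the 5 genes most like the mean of the 8, and some markers. Pmvk, Stard4, Soat1, Apoe and Pdss1 were named after their values were seen. Coordinates are from GENCODE (GRCm38) by symbol, promoters from RefSeq. Counts carry no molecular identifiers here, so floors cover counting error only. The 36 pairs of libraries of one condition all differed by more than sampling noise (chi-square per gene at least 3.79). Some genes of the lists are not reported here and were left out of the list counts.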

Additional observations from a re-analysis of the deposited data

Results flagged for a closer look

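In groups of 4 to 10 libraries, the gap of the highest or lowest library to its neighbour was set against the range of the group (Dixon's ratio). Of 88 groups examined, 14 had a library apart by this measure, and in 13 of the 14 the library was Hyperoxia 1. Independent groups would give about 1 in 20, or 4, by chance. These groups are not independent, since the same 13 libraries were examined for every gene and measure.

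Among the 8 genes, Hyperoxia 1 was apart as the lowest hyperoxic library for Sqle (ratio 0.775), Idi1 (0.705) and Fdps (0.766) and as the highest for Fdft1 (0.689). It was also the lowest for Srebf1 (0.698), Hsd17b7 (0.825), Mylip (0.738) and Abcg1 (0.658), and the highest for Fasn (0.637). Its mean correlation with the other libraries was apart from that of the other hyperoxic libraries (0.763). So were its summed levels of alveolar type 1 markers (0.712), club and ciliated markers (0.688) and alveolar macrophage markers (0.729), each as the lowest. Insig1 in Hyperoxia 1 was the third of 6 from below. What sets this library apart was not tested.

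Outside Hyperoxia 1, the total count of Normoxia 5 was apart as the lowest of the 7 normoxic libraries (ratio 0.612, 1607111 counts). This library also had the lowest normoxic level of Insig1, 18.4 CPM.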

How the results depend on the processing

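Insig1 kept its direction in every alternative and its call in all but the fit of the B to M libraries alone and the rule that adds a log2 fold change threshold, its log2 fold change running from −0.97 to −0.86 over 9 other settings and from −0.94 to −0.80 over the 13 fits that left out 1 library (adjusted p 0.00145 to 0.00751). Over all genes, 2819 were called, 1344 with the replicate block, 1120 in the B to M libraries alone, and 2305 to 3633 with 1 library left out. Of the 8 genes, 1 was called, 0 in the B to M libraries alone, 0 with both thresholds, and 1 to 2 with 1 library left out, the 2 without Hyperoxia 1. Of the 49 other cholesterol genes, 11 were called, 7 (of 38 tested) with at least 10 counts in every library, 5 with the replicate block, 4 in the B to M libraries alone, and 7 to 17 with 1 library left out, 7 without Normoxia 3 and 17 without Hyperoxia 1. The O to S libraries alone, 5 against 8 in the B to M set, called 2794 of all genes, 1 of the 8 and 13 of the 49. The cause of these moves was not tested.

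Among the genes followed (the 8, the list genes called and Srebf2, Insig2, Scap and Srebf1), signs turned for 4. With at least 10 counts in every library, Idi1, Fdps, Dhcr7, Mylip, Ch25h, Cyp27a1, Cyp7b1 and Fads1 were not tested, nor was Ch25h in 1 fit without a library. Sqle turned to 0.17 in the O to S libraries alone and ran from −0.17 to 0.13 with 1 library left out, the 0.13 without Hyperoxia 1. Srebf2 turned to −0.039 with limma-voom, −0.085 with limma on the deposited values and −0.058 with the replicate block, and ran from −0.16 (without Hyperoxia 3) to 0.30 with 1 library left out. In the O to S libraries alone Scap turned to 0.61 and Srebf1 to 0.12. The median of all genes was −0.157 with limma on the deposited values and −0.104 with library size alone, against −0.03. Hsd17b7, Mbtps1, Lrp1, Ch25h, Cyp27a1, Nus1, Acly, Acss2 and Fads1 lost their call with the replicate block, and each of them also in the B to M libraries alone. Fasn and Cyp7b1 lost it in the latter only.

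For samples of the same replicate number, the correlation of deviations from the group means was between −0.325 and 0.272. It exceeded 0.1 in 1 of 6 pairs. These values cannot decide whether the numbers pair the samples, since single libraries such as Hyperoxia 1, which enters the lowest value, can set them. With the replicate block, Insig1 was at −0.90 and remained called, and the calls of all genes fell to 1344 as given above.

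Some genes were counted few times, Dhcr7 with 7 to 30 counts and Cyp27a1 and Ch25h with 0 or 1 count in the lowest library.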
